A study of Mus musculus with 8 samples.

Results

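Transcripts of 9 genes of blood clotting and its reversal were followed in mouse peritoneal macrophages cultured with or without histidine-rich glycoprotein (HRG). The 9 genes are F3, F7, F10, F5, F13a1, Thbd, Procr, Plau and Plaur, and each was read from the single row of the array that the platform annotation pairs with its symbol alone, among 19938 genes with such a row. The cells came from the peritoneal lavage of wt C57/Bl6 mice, pooled from 10 animals, and had rested overnight in RPMI with fetal calf serum. The 4 groups, with 2 arrays each, were HRG at 6 h, basal (untreated) at 6 h, HRG at 24 h and basal at 24 h, and recombinant HRG was given at 1 µg/ml. All groups share the pool, and the labels do not name separate cultures, so the p-values reflect variation between the 2 samples of a group that may be purely technical. Levels are log2 values from robust multi-array averaging (RMA), and differences are on the same log2 scale with the standard error of the fit. That error pools the spread within all 4 groups, so it understates the spread of a group whose replicates lie far apart. The words "rose" or "fell" mark an adjusted p under 0.05 over all genes (limma, two-sided). Whether groups of 2 arrays overlap is given as a description only, since the share of all genes without overlap was not computed.

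Clotting starts when tissue factor, encoded by F3, binds factor VII, and the complex activates factor X. Activated factor X and its cofactor, factor V, then make thrombin, which clots fibrinogen, and factor XIII cross-links the fibrin. Thrombomodulin (Thbd) and the endothelial protein C receptor (Procr) turn thrombin towards the activation of protein C, which inactivates factor V. Urokinase (Plau), held at the cell surface by its receptor (Plaur), converts plasminogen to plasmin, which dissolves fibrin. Macrophages are known to make several of these proteins, and HRG, a plasma protein, is known to bind plasminogen, fibrinogen and heparin.

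The label of the cells was checked against macrophage marker transcripts and found present: the lowest group mean among the 8 markers was 10.06 (Mertk, basal samples at 6 h). Csf1r, the receptor for macrophage colony-stimulating factor, averaged 13.20 in HRG and 13.21 in basal samples at 24 h, and Lyz2, lysozyme, averaged 13.95 in HRG and 13.91 in basal samples. Of the 8 markers 2 rose with HRG at 24 h, the Fc receptor gene Fcgr1 by 1.13 ± 0.16 (adjusted p = 0.00189) and the phagocytic receptor gene Mertk by 0.51 ± 0.10 (adjusted p = 0.0157). At 6 h 1 rose, Mertk by 0.81 ± 0.10 (adjusted p = 0.00449). Over all genes 2.43% rose with HRG at 24 h and 0.431% at 6 h. Markers of other cells moved with the groups too. With HRG at 6 h, 1 of 6 B cell markers and 1 of 8 T and NK cell markers fell, where 0.818% of all genes fell. At 24 h 2 of 6 B cell, 3 of 7 mast cell and 1 of 5 dendritic cell markers rose, where 2.43% of all genes rose. The summed linear signal at 24 h ran from 3103 to 3764 in HRG and from 2012 to 2614 in basal samples for B cells, and from 7514 to 9308 in HRG and from 5058 to 6299 in basal samples for mast cells. With time in basal samples 5 of 6 B cell, 3 of 7 mast cell and 3 of 7 small and monocyte-derived macrophage markers fell. There 2 of 5 dendritic cell markers fell too, and 5.48% of all genes fell. With time in HRG samples 2 of 7 mast cell and 2 of 8 T and NK cell markers rose, while 2 of 7 small macrophage markers rose and 3 fell. Over all genes 4.41% rose and 2.87% fell there. For the difference of the HRG effects 1.02% of all genes rose. There 4 of 6 B cell, 2 of 7 mast cell and 2 of 7 small macrophage markers rose. So did 1 of 7 platelet and 1 of 8 T and NK cell markers. Macrophage markers moved with time as well. In basal samples Mertk rose by 0.83 ± 0.10 and Cd14 by 0.42 ± 0.11, and Fcgr1 fell by 0.64 ± 0.16. In HRG samples 3 of 8 rose, Mertk by 0.52 ± 0.10, Cd14 by 0.60 ± 0.11 and Itgam by 0.40 ± 0.098. Of 8 large peritoneal macrophage markers 2 rose and 2 fell in basal samples, where 3.80% of all genes rose, and 2 rose and 1 fell in HRG samples. The part of any of these cells in the results below was not tested. In bulk samples fewer cells of a type cannot be told apart from less RNA per cell. The lower quartile of the arrays ran from 5.89 to 5.98 in HRG arrays and from 5.85 to 6.00 in basal arrays, and all 9 genes lay above the dimmest 30% of genes.

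Upstream sequence was available for 7 of the 9 genes (RefSeq, GRCm38.p6). The sequences of the 4 genes among them that differed between HRG and basal samples at 24 h are shown, 5′ to 3′ and ending at the transcript start or, for Procr, at the annotated start of the gene. Capitals mark matches, on either strand, to AP-1 (TGAGTCA), SP1 (GGGCGG), KLF (CCACCC), NF-κB (GGG and CC with any 5 bases between them) or ARE (TGACNNNGC) letters.
F3, chr3:121723287-121723536, plus strand: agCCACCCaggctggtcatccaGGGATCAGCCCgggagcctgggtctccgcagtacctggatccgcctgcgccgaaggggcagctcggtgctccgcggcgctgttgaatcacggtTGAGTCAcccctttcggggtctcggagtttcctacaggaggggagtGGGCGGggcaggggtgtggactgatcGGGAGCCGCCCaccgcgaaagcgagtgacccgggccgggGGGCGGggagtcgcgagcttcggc
F13a1, chr13:37050245-37050494, minus strand: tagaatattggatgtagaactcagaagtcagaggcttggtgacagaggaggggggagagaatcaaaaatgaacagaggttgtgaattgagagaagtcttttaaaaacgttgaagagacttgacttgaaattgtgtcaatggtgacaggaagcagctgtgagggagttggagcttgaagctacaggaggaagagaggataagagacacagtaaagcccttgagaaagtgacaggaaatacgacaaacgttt
F5, chr1:164151585-164151834, plus strand: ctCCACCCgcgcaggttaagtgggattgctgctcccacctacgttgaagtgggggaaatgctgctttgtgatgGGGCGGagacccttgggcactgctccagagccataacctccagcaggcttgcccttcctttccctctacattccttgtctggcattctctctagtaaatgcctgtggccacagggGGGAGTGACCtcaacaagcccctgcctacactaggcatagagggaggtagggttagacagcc
Procr, chr2:155750967-155751124, plus strand: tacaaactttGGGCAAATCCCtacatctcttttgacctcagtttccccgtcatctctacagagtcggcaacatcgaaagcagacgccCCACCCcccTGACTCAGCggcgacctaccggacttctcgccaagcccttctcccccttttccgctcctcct

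Within the 250 bases before the start, F3 held 1 match to the AP-1 letters, 3 to SP1, 1 to KLF and 4, in overlapping pairs, to the loose NF-κB letters. Procr held 1 AP-1 match, whose letters overlap its single ARE match, together with 1 KLF and 3 NF-κB matches. The window of F5 had 1 match each to SP1, KLF and NF-κB, and the F13a1 window shown had 0 to any of the 5, while a second annotated start of F13a1 had 2 KLF matches. Plaur, whose sequence is not shown, also held 1 AP-1 match. Among 32851 such windows of all genes, 4.46% held the AP-1, 32.7% the SP1, 28.1% the KLF, 45.8% the NF-κB and 10.2% the ARE letters. These matches describe letters only: of the 3 genes with AP-1 letters, F3 and Procr differed from basal in opposite directions at 24 h and Plaur did not pass the test.

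At 6 h, HRG samples had more F3 and less F5 transcript than basal samples, and the other 7 genes did not pass. At 24 h, 4 genes rose (F3, F13a1, Thbd and Plau) and 2 fell (F5 and Procr), with F7, F10 and Plaur not passing. So 2 of 9 genes passed at 6 h, where 1.25% of all genes passed (0.431% higher and 0.818% lower), and 6 of 9 at 24 h, where 3.48% did (2.43% higher and 1.05% lower). The genes had been chosen with such results known, so these shares are a description. The median difference of the 9 genes was 0.24 at 6 h and 0.19 at 24 h, against 0.019 and -0.019 over all genes.

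**Figure D1:**
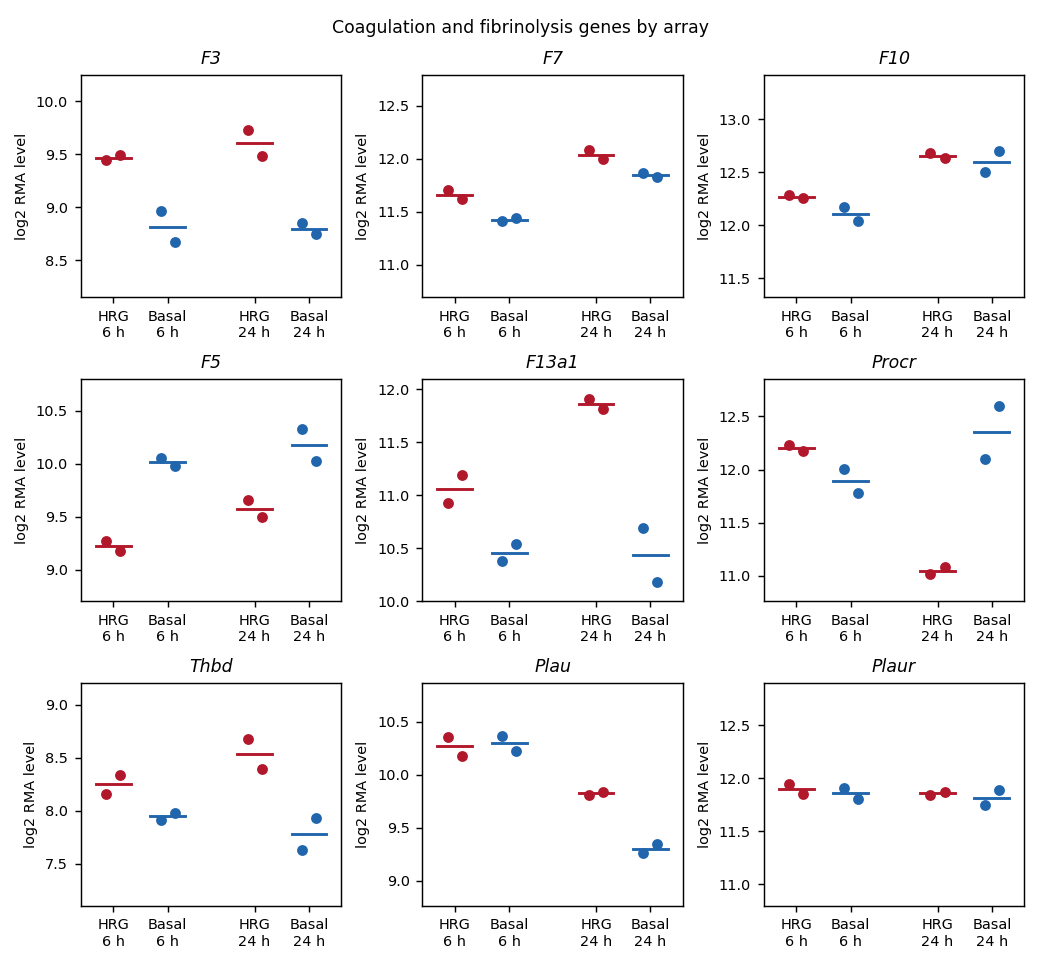
Log2 RMA level of each gene (vertical axis, spanning 2.1 log2 units in each panel) on every array; red points are HRG and blue points basal samples, and bars are means of 2 arrays. F3 lies higher and F5 lower in HRG samples at both times, Procr at 24 h stands at 11.01 and 11.08 with HRG against 12.10 and 12.60 in basal samples, and Plaur is level throughout.

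F3, which encodes tissue factor, the trigger of clotting, read 9.44 and 9.49 in HRG samples at 6 h, against 8.97 and 8.67 in basal samples at 6 h. At 24 h it read 9.73 and 9.48 in HRG samples, against 8.85 and 8.74 in basal samples. All 4 HRG arrays lay above all 4 basal arrays. F3 rose by 0.65 ± 0.12 at 6 h (1.57-fold, adjusted p = 0.0273) and by 0.81 ± 0.12 at 24 h (1.75-fold, adjusted p = 0.00313). The HRG effects at the 2 times differed by 0.16 ± 0.17 (95% interval -0.22 to 0.53, adjusted p = 0.82). With time F3 differed by 0.14 ± 0.12 (24 h minus 6 h) in HRG samples and by -0.02 ± 0.12 in basal samples, neither past the threshold. The 6 h call was lost when every row of the array was tested (adjusted p = 0.0622). Bracketed values without a name, here and below, are log2 differences of the fit in question. The 6 h call was also lost without Basal_6h replicate 2 (0.50), HRG_6h replicate 1 (0.68) or HRG_6h replicate 2 (0.62). The 24 h call was lost without HRG_24h replicate 1 (0.68, adjusted p = 0.0596).

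F7, the protease that tissue factor activates, read 11.71 and 11.62 in HRG samples at 6 h, against 11.41 and 11.44 in basal samples. Its 24 h values were 12.08 and 11.996 with HRG, against 11.87 and 11.83 in basal samples. The difference did not pass at 6 h (0.24 ± 0.092, 95% interval 0.04 to 0.44, adjusted p = 0.336) or at 24 h (0.19 ± 0.092, -0.01 to 0.39, adjusted p = 0.44). F10, whose active form makes thrombin, read 12.28 and 12.26 in HRG samples at 6 h, against 12.17 and 12.05 in basal samples. At 24 h F10 stood at 12.68 and 12.63 with HRG, against 12.50 and 12.70 in basal samples, and there the groups overlapped. Its differences were 0.16 ± 0.10 (-0.06 to 0.38) at 6 h and 0.06 ± 0.10 (-0.16 to 0.28) at 24 h.

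Longer culture, not HRG, was the contrast in which F7 and F10 passed. F7 rose by 0.37 ± 0.092 in HRG samples at 24 h against 6 h (1.30-fold, adjusted p = 0.0291) and by 0.43 ± 0.092 in basal samples (1.34-fold, adjusted p = 0.0119). F10 rose by 0.39 ± 0.10 in HRG samples (1.31-fold, adjusted p = 0.0366) and by 0.49 ± 0.10 in basal samples (1.41-fold, adjusted p = 0.00843). In each of the 4 comparisons both 24 h arrays lay above both 6 h arrays. F7 and F10 lie next to each other on chromosome 8 and are followed there by Proz, which encodes the related protein Z. Proz differed by -0.07 ± 0.10 in HRG samples and by 0.18 ± 0.10 in basal samples with time, neither past the threshold. The F7 and F10 calls in HRG samples were lost without any 1 of the 4 HRG arrays, where F7 ran from 0.33 to 0.42 and F10 from 0.36 to 0.41. F10 in HRG samples also missed under renewed quantile normalization (0.28), median centring (0.39) and when every row was tested. In basal samples the F7 call was lost without Basal_6h replicate 1 (0.41), Basal_24h replicate 1 (0.40) or Basal_24h replicate 2 (0.45), and the F10 call without Basal_24h replicate 2 (0.40).

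F5 encodes factor V, the cofactor of activated factor X. It read 9.28 and 9.18 in HRG samples at 6 h, against 10.06 and 9.98 in basal samples, and 9.66 and 9.50 in HRG samples at 24 h, against 10.33 and 10.02 in basal samples. All 4 HRG arrays lay below all 4 basal arrays, the reverse of F3. F5 fell by 0.79 ± 0.12 at 6 h (1.73-fold lower, adjusted p = 0.00826) and by 0.60 ± 0.12 at 24 h (1.52-fold lower, adjusted p = 0.0127). The effects at the 2 times differed by 0.19 ± 0.16 (-0.17 to 0.55). With time F5 differed by 0.35 ± 0.12 in HRG samples (adjusted p = 0.103) and by 0.16 ± 0.12 in basal samples, neither past the threshold. The F5 difference in HRG samples passed with trended and robust eBayes (adjusted p = 0.0498) and when only those arrays were fitted (adjusted p = 0.0375). Without Basal_6h replicate 1 (-0.75) or HRG_6h replicate 2 (-0.74) the 6 h call was lost, and without Basal_24h replicate 1 (-0.45), HRG_24h replicate 1 (-0.68) or HRG_24h replicate 2 (-0.52) the 24 h call was lost.

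F13a1 encodes the catalytic subunit of factor XIII, which cross-links fibrin and is made by platelets and by monocytes and macrophages. It read 10.93 and 11.19 in HRG samples at 6 h, against 10.38 and 10.54 in basal samples. At 24 h it read 11.91 and 11.82 in HRG samples, against 10.69 and 10.19 in basal samples. The groups did not overlap at either time, and the basal replicates at 24 h lay far apart (SD 0.36). F13a1 rose by 1.42 ± 0.15 at 24 h (2.68-fold, adjusted p = 0.000303), the 16th largest increase of 19938 genes, whereas its 6 h difference of 0.60 ± 0.15 did not pass (adjusted p = 0.0972). The 6 h difference passed with trended and robust eBayes (adjusted p = 0.0392) and without Basal_24h replicate 1 or replicate 2 (adjusted p = 0.0296 for each). The effect at 24 h exceeded that at 6 h by 0.82 ± 0.21 (0.36 to 1.29), which did not pass over all genes (adjusted p = 0.0977) but did under 3 alternatives (adjusted p = 0.0249 to 0.0426) and without Basal_24h replicate 1 (1.08, adjusted p = 0.011). HRG samples at 24 h were higher than HRG samples at 6 h by 0.81 ± 0.15 (adjusted p = 0.00683), and basal samples differed by -0.02 ± 0.15 between the times. The call of F13a1 at 24 h was kept in each of the 8 fits without 1 array (1.17 to 1.68), and the time call in HRG samples was lost without HRG_6h replicate 1 (0.67) or HRG_24h replicate 1 (0.76).

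Platelet markers were read beside F13a1. Of 11 such markers 7 were measured, and 1 rose with HRG at 24 h, the chemokine gene Ppbp, by 1.38 ± 0.11. Pf4 (platelet factor), Itga2b, Itgb3, Gp5, Gp9 and Treml1, which encode platelet proteins, had differences between -0.13 and 0.11, none past the threshold. Ppbp was also the 1 of 7 to pass with time and for the difference of the HRG effects. With time it rose by 2.05 ± 0.11 in HRG and by 1.17 ± 0.11 in basal samples, where 4.41% and 3.80% of all genes rose. The HRG effects differed by 0.88 ± 0.16 (adjusted p = 0.0215), where 1.02% of all genes rose. The summed linear signal of all 7 markers, Ppbp included, ran from 13401 to 13823 in HRG samples, against 11387 to 12130 in basal samples at 24 h. The highest of them were Pf4, at 13.44 with HRG and 13.33 in basal samples, and Ppbp, at 10.73 and 9.34. Itga2b, Itgb3, Gp5, Gp9 and Treml1 averaged between 6.71 and 8.00 in these groups, where the median gene of the array averaged 7.48. Of 7 markers of small and monocyte-derived macrophages, 2 rose at 24 h, Mrc1 by 1.47 ± 0.12 and Folr2 by 1.13 ± 0.12. Their summed signals ran from 1357 to 1599 in HRG and from 866 to 897 in basal samples. Ccr2 of that list averaged 5.68 with HRG and 5.56 in basal samples. Of 8 markers of large peritoneal macrophages, 1 rose at 24 h, Timd4 by 0.74 ± 0.11 (adjusted p = 0.00313), and 1 at 6 h, Ltbp1 by 0.47 ± 0.096 (adjusted p = 0.0387). For the difference of the HRG effects Timd4 rose by 0.74 ± 0.16 (adjusted p = 0.0422). Over all genes 2.43% rose with HRG at 24 h. The array gives no true 0, and the part of these cells in the F13a1 difference was not tested.

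**Figure D2:**
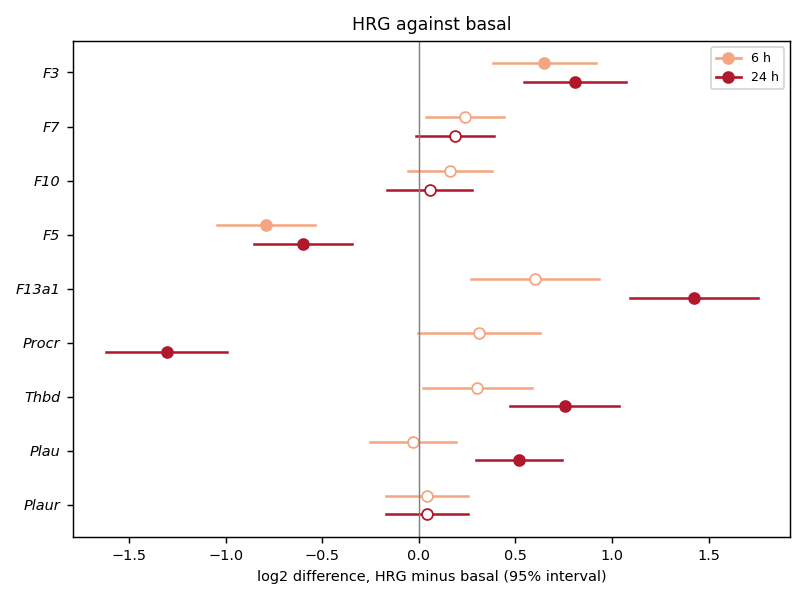
Difference between HRG and basal samples for each gene (horizontal axis, log2, with 95% intervals of the fit) at 6 h (light) and 24 h (dark); filled points passed an adjusted p of 0.05 over all genes. F3 and F5 are filled on opposite sides of 0 at both times, and Procr has its 24 h point (-1.31) far to the left of its 6 h point (0.31).

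Thbd and Procr, the membrane proteins that promote protein C activation, parted at 24 h. Thbd, thrombomodulin, read 8.16 and 8.34 in HRG samples at 6 h, against 7.91 and 7.98 in basal samples, and 8.68 and 8.40 in HRG samples at 24 h, against 7.63 and 7.94 in basal samples. HRG arrays were higher at both times without overlap. Thbd rose by 0.76 ± 0.13 at 24 h (1.69-fold, adjusted p = 0.00635), and its 6 h difference of 0.30 ± 0.13 did not pass (adjusted p = 0.408). The effects differed by 0.45 ± 0.18 (0.05 to 0.85, adjusted p = 0.363). With time Thbd differed by 0.29 ± 0.13 in HRG samples and by -0.16 ± 0.13 in basal samples, neither past the threshold. The 24 h call was lost without HRG_24h replicate 1 (0.61, adjusted p = 0.11).

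Procr, the protein C receptor, read 12.23 and 12.17 in HRG samples at 6 h, against 12.001 and 11.78 in basal samples. At 24 h it read 11.01 and 11.08 in HRG samples, against 12.10 and 12.60 in basal samples. The HRG arrays were thus the higher ones at 6 h and the lower ones at 24 h, and the basal replicates at 24 h were spread (SD 0.35). Procr fell by 1.31 ± 0.14 at 24 h (2.47-fold lower, adjusted p = 0.000397), the 17th largest decrease of all genes. Its 6 h difference of 0.31 ± 0.14 did not pass (adjusted p = 0.458). The effect at 24 h minus that at 6 h was -1.62 ± 0.20 (-2.06 to -1.17, adjusted p = 0.00424), and Procr was the 1 gene of the 9 to pass this test, which 1.47% of all genes passed (1.02% higher and 0.451% lower). In HRG samples Procr fell by 1.16 ± 0.14 at 24 h against 6 h (2.23-fold lower, adjusted p = 0.000479), whereas basal samples differed by 0.46 ± 0.14 between the times (adjusted p = 0.0715). That basal difference passed with trended and robust eBayes (adjusted p = 0.0353), with the lower quartile covariate (0.55, adjusted p = 0.0117) and without Basal_24h replicate 1 (0.71, adjusted p = 0.00672). These 3 calls of Procr were kept in each of the 8 fits without 1 array, with the difference of the effects between -1.87 and -1.37.

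Thrombomodulin and the protein C receptor are best known from endothelium, and thrombomodulin also marks some dendritic cells. The 6 endothelial markers had differences between -0.13 and 0.37 for HRG against basal at 24 h, with the highest in Pecam1 (adjusted p = 0.0767). Their summed linear signal ran from 683 to 698 in HRG samples, against 637 to 668 in basal samples. With time Cdh5 fell by 0.60 ± 0.099 in HRG samples (adjusted p = 0.00321) and Pecam1 by 0.53 ± 0.10 in basal samples (adjusted p = 0.0057). For the difference of the HRG effects Pecam1 rose by 0.65 ± 0.14 (adjusted p = 0.0475). Each was the 1 of 6 to pass there. The part of endothelial cells in the Procr and Thbd differences was not tested. Of 5 dendritic cell markers, Itgax, an integrin subunit that macrophages also make, rose by 1.00 ± 0.11. The others were not past the threshold: Cd209a averaged 8.08 with HRG and 6.64 in basal samples (1.44 ± 0.47, adjusted p = 0.156), and Flt3 averaged 7.49 with HRG and 7.02 in basal samples (0.47, adjusted p = 0.0688). Xcr1 and Zbtb46 differed by -0.12 and -0.10, and the median of the list was 0.47. The summed dendritic cell signal was 743 to 1204 in HRG and 542 to 596 in basal samples, and its part in the Thbd difference was not tested.

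Plau, urokinase, read 10.36 and 10.18 in HRG samples at 6 h, against 10.37 and 10.22 in basal samples, so that the groups overlapped. At 24 h it read 9.81 and 9.84 in HRG samples, against 9.26 and 9.35 in basal samples. Every 24 h array lay below every 6 h array, and within the 24 h arrays those with HRG were the higher. Plau fell by 0.44 ± 0.10 in HRG samples at 24 h against 6 h (1.36-fold lower, adjusted p = 0.0205) and by 0.99 ± 0.10 in basal samples (1.99-fold lower, adjusted p = 0.000111). HRG against basal gave -0.03 ± 0.10 at 6 h (-0.25 to 0.19), and Plau rose by 0.52 ± 0.10 at 24 h (1.43-fold, adjusted p = 0.0137). The effects differed by 0.55 ± 0.14 (0.23 to 0.86, adjusted p = 0.104), which passed under eBayes with trend and robust (adjusted p = 0.0367). The basal time call was kept in each of the 8 fits without 1 array. The HRG call at 24 h was lost without any 1 of the 4 arrays at 24 h (0.48 to 0.56), and the time call in HRG samples without HRG_6h replicate 1 (-0.35), HRG_24h replicate 1 (-0.43) or HRG_24h replicate 2 (-0.46).

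Plaur, the urokinase receptor, read 11.95 and 11.85 in HRG samples at 6 h, against 11.91 and 11.81 in basal samples. It read 11.85 and 11.87 in HRG samples at 24 h, against 11.75 and 11.89 in basal samples. The groups overlapped at both times. HRG minus basal was 0.04 ± 0.097 at 6 h (-0.17 to 0.25) and 0.04 ± 0.097 at 24 h (-0.17 to 0.25), and 24 h minus 6 h was -0.04 ± 0.097 in both HRG and basal samples. The upper bound of the HRG differences was thus 0.25, and the lower bound of the time differences was -0.25.

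**Figure D3:**
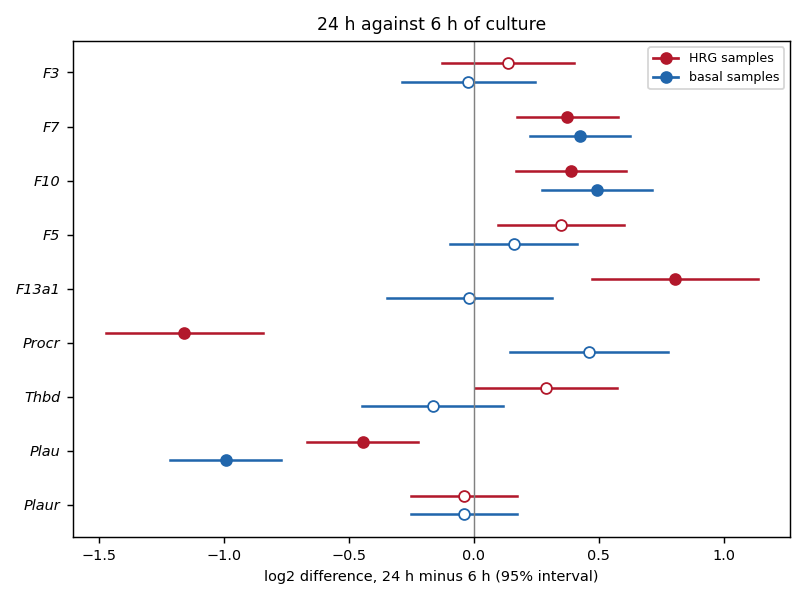
Difference between 24 h and 6 h for each gene (horizontal axis, log2, with 95% intervals of the fit) in HRG samples (red) and basal samples (blue); filled points passed an adjusted p of 0.05 over all genes. F7 and F10 are to the right of 0 and Plau to the left in both, while F13a1 (0.81) and Procr (-1.16) are filled in HRG samples only, where basal samples read -0.02 and 0.46.

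Counted by time, 5 of 9 genes passed for 24 h against 6 h in HRG samples, 3 up (F7, F10 and F13a1) and 2 down (Procr and Plau), where 7.28% of all genes passed (4.41% up and 2.87% down). In basal samples 3 of 9 passed, F7 and F10 up and Plau down, where 9.28% of all genes did (3.80% up and 5.48% down). The HRG and time comparisons share arrays, so their values are not independent of each other. Whether the time effects of F13a1 and Procr differ between HRG and basal samples is the same test as the difference of the HRG effects given above, which Procr passed and F13a1 did not.

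The wider pathway was read from a list of 45 other genes, 39 of which had a row. For HRG against basal 0 of 39 passed at 6 h, where 1.25% of all genes passed (limma, median difference 0.05). At an unadjusted p under 0.05 there were 2 of 39, against 2194 of 19938 over all genes. At 24 h 3.48% of all genes passed and 2.43% rose, and 1 of the 39 rose (median -0.02). That gene was Pros1, protein S, the cofactor of activated protein C. It read 10.22 and 9.91 in HRG samples at 24 h, against 9.63 and 9.39 in basal samples, a difference of 0.55 ± 0.13 (1.47-fold, adjusted p = 0.032). The groups did not overlap, but the call was lost when every row was tested and without Basal_24h replicate 2 (0.43) or HRG_24h replicate 1 (0.40). Pros1 also rose with time, by 1.15 ± 0.13 in HRG samples (adjusted p = 0.000207) and by 0.83 ± 0.13 in basal samples (adjusted p = 0.00137), and these calls were kept without any 1 array. For the difference of the HRG effects 0 of 39 passed in limma, where 1.47% of all genes passed. An unadjusted p under 0.05 was reached by 3 of 39, against 2197 of 19938 over all genes.

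With culture time 3 of 39 rose and 0 fell in HRG samples, where 7.28% of all genes passed, and 5 rose and 1 fell in basal samples, where 9.28% did. Tfpi, the inhibitor of the tissue factor complex, rose by 0.57 ± 0.12 in HRG samples (adjusted p = 0.0109) and by 0.60 ± 0.12 in basal samples (adjusted p = 0.00643). At 24 h Tfpi read 9.05 and 8.99 in HRG samples, against 8.95 and 9.04 in basal samples, a difference of 0.03 ± 0.12 (-0.23 to 0.28). The call of Tfpi in basal samples was lost without Basal_24h replicate 2 (0.55) and that in HRG samples without any 1 of the 4 HRG arrays (0.54 to 0.60).

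Among 5 genes for the processing of clotting factors, 3 rose and 1 fell with time in basal samples, where 9.28% of all genes passed, with a median of 0.37 against 0.028 over all genes. In HRG samples 1 of these 5 passed, with a median of -0.087 against -0.020 over all genes. Ggcx, the vitamin K-dependent carboxylase that modifies factors VII and X, rose by 0.38 ± 0.11 in basal samples (adjusted p = 0.0448). In HRG samples it differed by 0.16 ± 0.11 and did not pass (adjusted p = 0.488). Vkorc1, which recycles vitamin K for that enzyme, rose by 0.50 ± 0.13 in basal samples (adjusted p = 0.0283) and by 0.63 ± 0.13 in HRG samples (adjusted p = 0.0105). Lman1 and Mcfd2 encode the partners that carry factors V and VIII out of the endoplasmic reticulum. In basal samples Lman1 rose by 0.37 ± 0.10 (adjusted p = 0.0311) and Mcfd2 fell by 0.37 ± 0.10 (adjusted p = 0.0439). These calls were close to the threshold. Ggcx, Lman1 and Mcfd2 each lost it without at least 6 of the 8 single arrays (0.35 to 0.42, 0.28 to 0.46 and -0.43 to -0.31). All 3 also lost it when only the compared arrays were fitted, Ggcx and Lman1 under median centring, Ggcx and Mcfd2 when every row was tested, and Mcfd2 under renewed quantile normalization (-0.32). Vkorc1 lost it in basal samples without Basal_6h replicate 2 (0.37), Basal_24h replicate 1 (0.54) or Basal_24h replicate 2 (0.46), and in HRG samples without HRG_6h replicate 2 (0.45), HRG_24h replicate 1 (0.58) or HRG_24h replicate 2 (0.67).

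**Figure D4:**
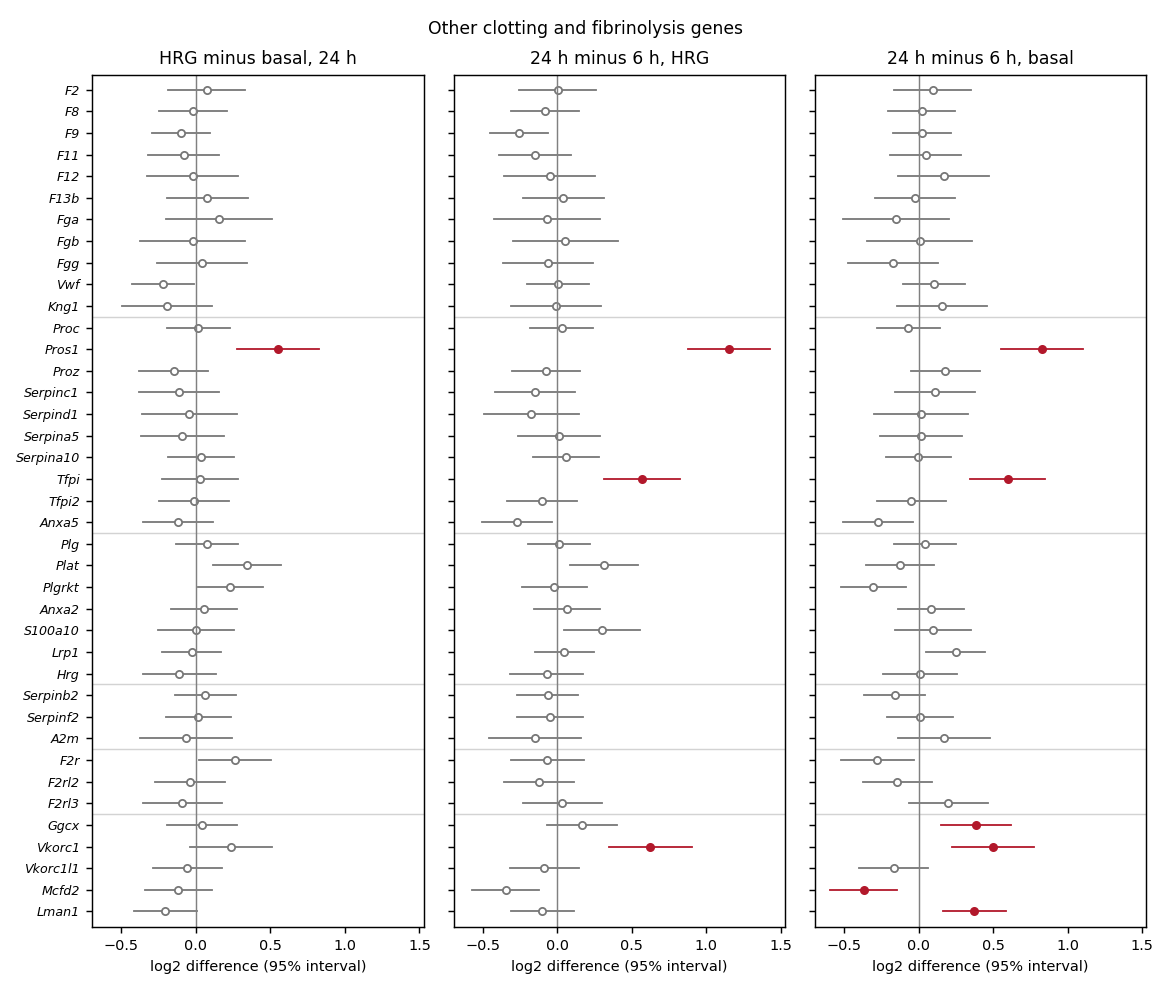
Differences (horizontal axes, log2, with 95% intervals of the fit) of 39 other clotting and fibrinolysis genes, grouped by role with grey lines, for HRG minus basal at 24 h and for 24 h minus 6 h in HRG and in basal samples; red filled points passed an adjusted p of 0.05 over all genes. Pros1 is the single filled point for HRG minus basal (0.55), and Pros1, Tfpi and Vkorc1 are filled for time in both HRG and basal samples.

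The remaining groups of the list gave no call. Of 11 other clotting factor and fibrinogen genes, 7 genes of the plasminogen system, 3 inhibitors of fibrinolysis and 3 protease receptors, 0 passed in any of the 5 comparisons in limma. Over all genes 1.25% to 9.28% passed, depending on the comparison. At an unadjusted p under 0.05 there were 12 of the 120 tests, and over all genes 2194 to 4061 of 19938 in each comparison. Plat, tissue plasminogen activator, averaged 7.34 with HRG and 6.997 in basal samples at 24 h, a difference of 0.34 ± 0.10 (adjusted p = 0.126). Serpinb2, the macrophage inhibitor of urokinase, averaged 13.83 with HRG and 13.76 in basal samples, a difference of 0.06 ± 0.094 (-0.14 to 0.27). F2r, the thrombin receptor, differed by 0.26 ± 0.11 at 24 h (adjusted p = 0.334). Of the 39 genes, 23 lay above the dimmest 30% of genes, so part of the list was read near the low end of the array.

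The genes whose values ran most like each member over the 8 arrays were taken from about 1150 genes with an SD of at least 0.3. Pearson correlations are given as a description, since the arrays share 1 pool and fall into 4 groups. F3 was followed most closely by Fam20a (r = 0.956) and Mvb12b (0.950), and F5 by Trp53inp1 (0.880) and Fas (0.840). F13a1 ran with Fn1 (0.992) and C1qc (0.978), Thbd with Abcg3 (0.962) and Rab3il1 (0.953), and Procr with Slc22a4 (0.977) and Ptgr1 (0.967). Slc22a4 shared the turn of Procr, with an HRG minus basal difference of 0.36 at 6 h and -0.99 at 24 h. F7 ran with Krt80 (0.992) and Ncf1 (0.991), F10 with Egr2 (0.986) and Cd300lb (0.985), and Plau with Slc13a3 (0.990) and Il1rn (0.988). Among the members themselves, the largest correlations in size began with F7 and F10 at 0.921 and F3 and F13a1 at 0.878. Next came F3 and Thbd at 0.872, F13a1 and Thbd at 0.851, F13a1 and Procr at -0.835 and F3 and F5 at -0.787.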

How the data were processed

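RNA of 8 macrophage samples was labelled as sense-strand cDNA and read on Affymetrix arrays. The deposited values are log2 levels that the authors made by RMA with Affymetrix Expression Console, per the submitters' processing notes, which also name limma. The sources used here give neither versions nor a genome build, and the table holds no detection calls. Of 28853 rows, 21789 had 1 gene symbol in the platform annotation. For genes with several rows the one with the highest mean was used, leaving 19938 genes, and each of the 9 members had 1 row. No low-value filter was applied.

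Group means of the 8 arrays were estimated together with limma 3.58.1 in R 4.3.3 (4 residual and 7.81 prior degrees of freedom), followed by contrasts and eBayes. P-values of each of 5 comparisons were adjusted by Benjamini-Hochberg over all genes, and intervals are the 95% intervals of the fit. The number of arrays limits the precision. The fit was tested on simulated data drawn from its own fitted variances with independent noise. That test checks the code, and it does not cover the shared pool or unequal spread between groups. The members, the lists of other genes and the tests were chosen with earlier results of these data known. Genes named besides the members were those of the wider list that passed any comparison and, for each member that passed one, the 2 with the highest correlation. Plat, Serpinb2, F2r and Proz were named after their values were seen. Alternatives were median centring, renewed quantile normalization, a trended and robust eBayes, a replicate block, dropping the dimmest 30%, averaging the rows of a gene, testing every row, fitting the compared arrays alone and leaving out each array. A fit with every array's lower quartile as a covariate was chosen after seeing the data.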

Additional observations from a re-analysis of the deposited data

Results flagged for a closer look

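Procr was the member whose HRG effect differed between the 2 times by a test of the difference itself. The effect at 24 h minus that at 6 h was -1.62 ± 0.20 (limma, adjusted p = 0.00424, n = 2 arrays per group), with both HRG arrays above both basal arrays at 6 h and below them at 24 h. Groups of 2 arrays are too small to look for single outlying samples.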

How the results depend on the processing

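The 17 calls of the 9 genes kept direction and side of the threshold under every alternative run for them other than leaving out an array (9 each, and 8 for the Procr difference of effects, which cannot be fitted on 2 groups alone), except F3 at 6 h and F10 with time in HRG samples, and 5 of the 17 were kept in all 8 fits without 1 array (F13a1 and Procr at 24 h, the Procr difference of effects, Procr with time in HRG samples and Plau with time in basal samples). None of them turned sign. Leaving out 1 array moved the number of the 9 genes past the threshold to 0 to 3 at 6 h, 2 to 6 at 24 h, 1 to 2 for the difference of the HRG effects, 1 to 5 with time in HRG samples and 1 to 3 with time in basal samples. The same counts over all genes were 21 to 287, 182 to 781, 56 to 404, 529 to 1680 and 1124 to 1817, and fewer samples are part of that by construction.

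With trended and robust eBayes 492 genes passed at 6 h and 547 for the difference of effects, where 3 of the 9 passed, F13a1 and Plau besides Procr. With every row tested 134 and 168 passed, and 1 of the 9 at 6 h. Fitting only the compared arrays gave 155 at 6 h. Median centring gave 2 of the 9 for the difference of effects (F13a1 with Procr), as did the lower quartile covariate, which gave 518 genes at 6 h, 1099 at 24 h, 519 for the difference and 2518 with time in HRG samples. The cause was not tested.

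Small differences that had not passed turned sign. Under renewed quantile normalization these were F13a1 (0.025) and F3 (0.036) with time in basal samples, Plau at 6 h (0.0041), Plaur at 24 h (-0.009) and the Plaur difference of effects (-0.064). With the lower quartile covariate they were F3 with time in basal samples (0.0475), Plau at 6 h (0.013) and the Plaur difference of effects (-0.062). Without 1 array, F10 at 24 h ran from -0.040 to 0.15, F13a1 with time in basal samples from -0.27 to 0.23, F3 there from -0.17 to 0.13 and Plau at 6 h from -0.12 to 0.063. Plaur ran from -0.0095 to 0.093 at 6 h, from -0.0265 to 0.11 at 24 h, from -0.068 to 0.070 for the difference of effects, from -0.0905 to 0.012 with time in HRG samples and from -0.11 to 0.029 in basal samples.

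The labels link the 2 replicates of a group to those of other groups by number only. Deviations of replicate 1 correlated at 0.244 to 0.411 among HRG at 6 h, basal at 6 h and HRG at 24 h. Between each of these and basal at 24 h they correlated at -0.331 to -0.201. A block by replicate number cannot hold a pattern that runs the other way in basal samples at 24 h. Whether replicates share such a pattern was not tested. The replicate block left the 9 genes at 2, 6, 1, 5 and 3 calls, with 242, 725, 362, 1452 and 1860 over all genes.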
